A study of Homo sapiens with 10 samples.

Results

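The glutamine and glutamate tRNA rows are the rows of the deposited tRNA tables whose name gives the isotype Gln or Glu. They were chosen by name alone, leaving aside rows with an nm or nmt prefix, and there were 62 of them among 631 tRNA rows, 33 for glutamine and 29 for glutamate. The tables came from 10 iCLIP libraries, an assay that crosslinks RNA to a protein in living cells with UV light and sequences the RNA that comes down with the protein. The protein was PUS7 with a FLAG tag. All cells were PUS7 knockout (PUS7KO) cells: the FLAG-PUS7 libraries came from PUS7KO cells that carried FLAG-PUS7, and the knockout libraries from PUS7KO cells without it, put through the same anti-FLAG pull-down. HEK 293T, a transformed human embryonic kidney line at passage 20 to 25, gave 3 libraries with FLAG-PUS7 and 3 without. H9, a human embryonic stem cell line at passage 40 to 45, gave 2 of each. The labels do not say how FLAG-PUS7 was expressed or whether the knockouts were single clones. Each replicate took 2 plates of 15 cm, and the labels do not say whether different replicates were grown apart. The p-values therefore cover the spread between these samples alone, which may be technical.

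Glutamine and glutamate tRNAs carry these amino acids to the ribosome, and each isotype is read through a pair of main anticodons, CTG and TTG for glutamine and CTC and TTC for glutamate in the DNA spelling used here. PUS7 is a pseudouridine synthase, an enzyme that turns uridine into pseudouridine within RNA. In yeast its counterpart Pus7 modifies a uridine near the D arm of several cytoplasmic tRNAs, and it recognises a short sequence of the form UNUAR, where R is A or G. Human genomes hold many copies of most tRNA genes, and copies that share a name up to the last number (Gln-CTG-1-1 to Gln-CTG-1-5) encode the same mature tRNA, called an isodecoder.

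The RefSeq tables at hand held the start of 1 glutamine or glutamate tRNA gene, TRQ-CTG7-1, and it is shown because it places the PUS7 motif in a tRNA of this set. The gene lies at chr1:148328812-148328883 on GRCh38.p14, plus strand. The first 60 of its 72 bases (chr1:148328812-148328871), 5′ to 3′, are given with the match to the motif TNTAA or TNTAG, the motif with T in place of U, in capitals.
TRQ-CTG7-1: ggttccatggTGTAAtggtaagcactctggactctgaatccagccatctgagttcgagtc
The match ran from position 11 to position 15 of the gene, so that its middle letter, the uridine that the enzyme modifies in this motif, was at position 13. The anticodon CTG stood at positions 34 to 36. There was 1 match on the gene's strand and 0 on the other strand, and 28.9% of 35116 RefSeq windows of 60 bases held a match on either strand. This gene's own row was detected in the second 293T FLAG-PUS7 library and the first H9 FLAG-PUS7 library, and in no knockout library.

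The tRNA tables hold level numbers of text entries in place of counts, so a row could be read only as present (at least 1 read, called detected) or absent (called not detected). Amounts, fold changes and depth are unknown for tRNAs, and neither the level of PUS7 nor markers of the cell lines were analysed here. Over all 631 rows, the FLAG-PUS7 libraries detected 458 to 478 rows in 293T and 472 to 479 in H9, and the knockout libraries 133 to 232 rows in 293T and 0 and 232 in H9. The first H9 knockout table was the one used to read the others and has 0 detected rows by construction, and it can stand for a library without tRNA reads or for a table that was not filled. Differences that rest on it are given with and without it.

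Glutamine and glutamate rows were detected more often in every FLAG-PUS7 library than in any knockout library. Of the 62 rows, the FLAG-PUS7 libraries detected 45, 41 and 38 in 293T, where the knockout libraries detected 22, 19 and 15. In H9 the numbers were 41 and 43 with FLAG-PUS7, against 0 and 32 in the knockout. The groups did not overlap in either line, and the second H9 knockout library held more of these rows than any 293T knockout library.

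Both isotypes were detected more often with FLAG-PUS7 than in the knockout of the same line. Glutamine rows numbered 22, 21 and 19 of 33 in the 293T FLAG-PUS7 libraries and 7, 11 and 4 in the 293T knockout libraries. In H9 they numbered 20 in both FLAG-PUS7 libraries, and 0 and 15 in the knockout libraries. Glutamate rows numbered 23, 20 and 19 of 29 in the 293T FLAG-PUS7 libraries and 15, 8 and 11 in the 293T knockout libraries. In H9 they numbered 21 and 23 in the FLAG-PUS7 libraries, and 0 and 17 in the knockout libraries. As a mean over libraries, 62.6% ± 4.63 of glutamine rows were detected in 293T FLAG-PUS7 libraries and 22.2% ± 10.6 in 293T knockout libraries (SD, n = 3 each). For glutamate rows the shares were 71.3% ± 7.18 in 293T FLAG-PUS7 libraries and 39.1% ± 12.1 in 293T knockout libraries (SD, n = 3 each). With both lines weighted equally, FLAG-PUS7 minus knockout came to 12.9 glutamine rows and 11.4 glutamate rows. Without the first H9 knockout library these differences were 9.17 and 7.17 rows.

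**Figure D1:**
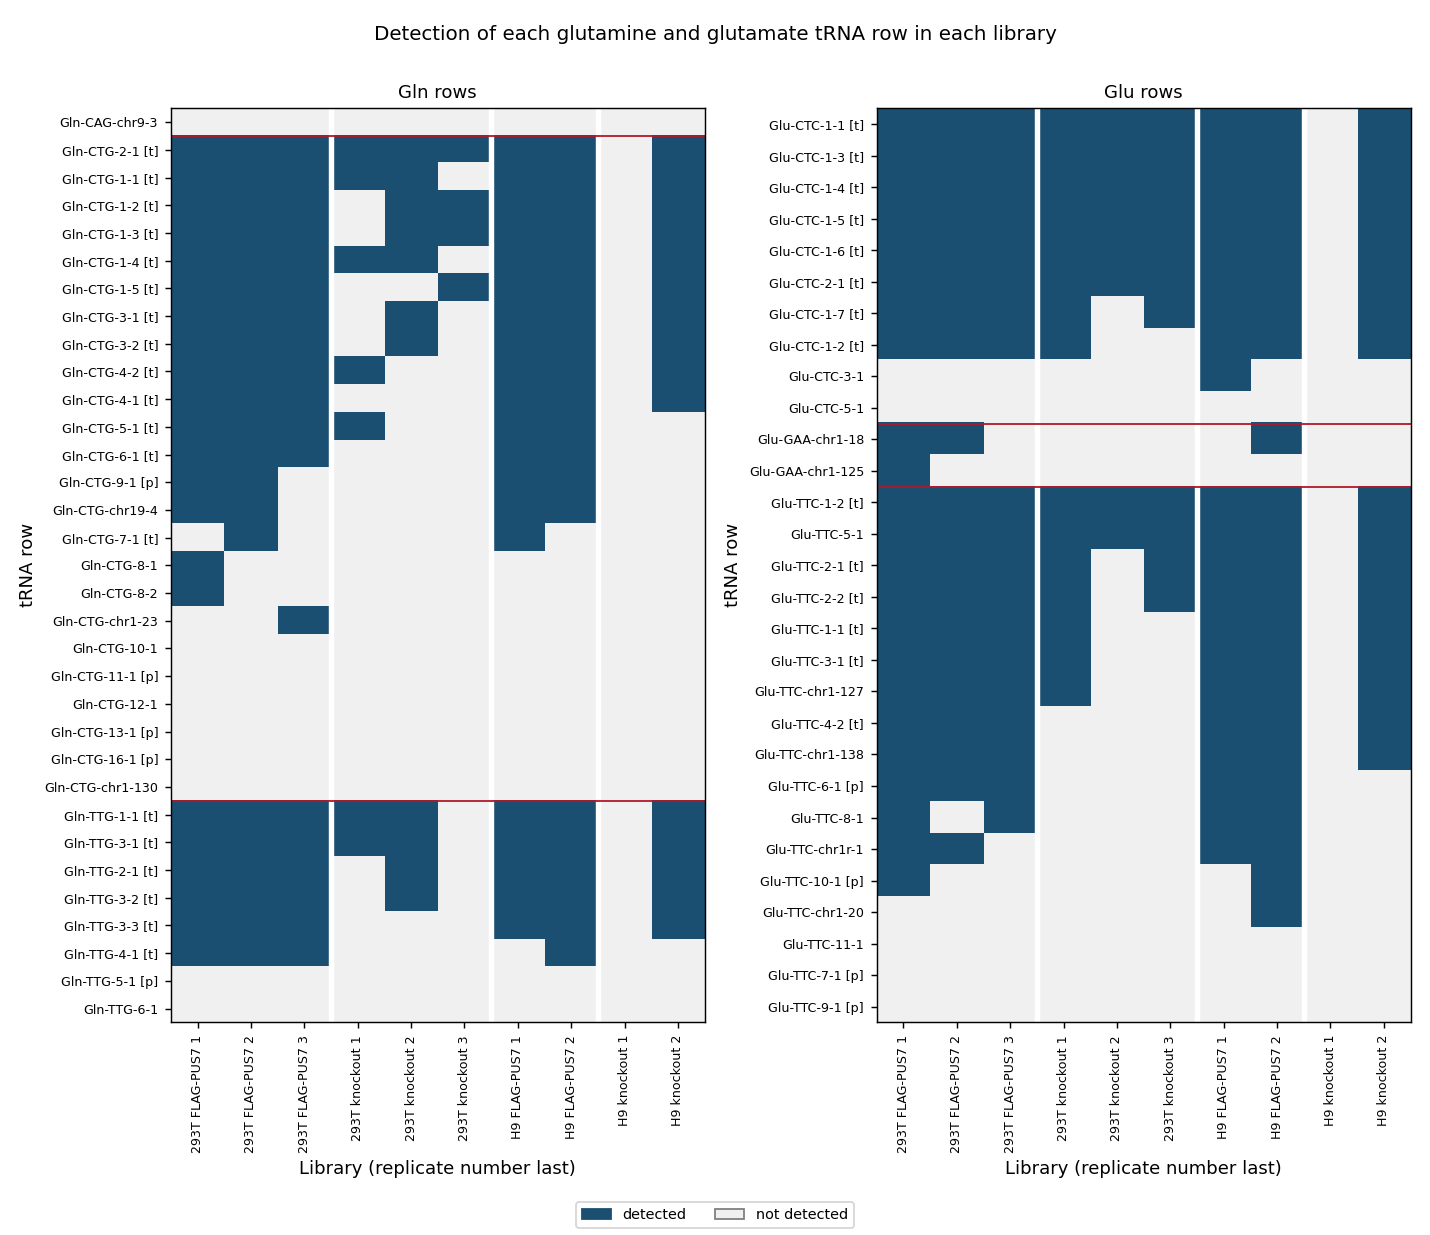
Detection of each of the 33 glutamine rows (left panel) and 29 glutamate rows (right panel), one row per line and one library per column, with FLAG-PUS7 libraries left of the knockout libraries of the same line. Dark cells are detected, [t] marks a row matched to a RefSeq tRNA gene and [p] one matched to a pseudogene, and red lines part the anticodon families. The upper lines of Gln-CTG, Gln-TTG, Glu-CTC and Glu-TTC are dark in all 5 FLAG-PUS7 columns and mostly part dark in the knockout columns, 13 rows are pale throughout, and the first H9 knockout column is empty by construction.

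The first comparison asked which anticodon families came down with FLAG-PUS7 beyond the mock pull-down. The 62 rows formed 6 families, of which 5 had a detected row and were tested. Gln-CTG, Gln-TTG and Glu-TTC had a larger part of their rows detected with FLAG-PUS7, while Glu-CTC and Glu-GAA did not pass the test. The test was an exact two-sided permutation of the FLAG-PUS7 label within lines (120 assignments, smallest possible p = 0.0167), adjusted by the Benjamini-Hochberg method over 57 families. Among all 57 families 45 were called higher, 78.9%, so that 3 of 5 is no more than the series as a whole shows. The median difference was 39.2 percentage points over the 5 families and 52.5 points over all 57, or 28.8 and 41.7 points without the empty H9 knockout library.

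Gln-CTG is the largest family, with 24 rows. In 293T, 16, 15 and 13 of them were found with FLAG-PUS7, against 5, 7 and 4 in the knockout. In H9, 15 and 14 were found with FLAG-PUS7, against 0 and 10 in the knockout. The groups did not overlap in either line. The difference was 39.2 points (exact permutation test, adjusted p = 0.0221), with 38.9 points in 293T and 39.6 in H9. Leaving out the empty H9 knockout library lowered it to 28.8 points, with 18.8 in H9, and the call remained (adjusted p = 0.0232, exact permutation test). The call was lost without the first or the second H9 FLAG-PUS7 library (adjusted p = 0.0566 and 0.0594, exact permutation test).

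Gln-TTG reads the other glutamine codon and has 8 rows. All 3 of the 293T FLAG-PUS7 libraries held 6, against 2, 4 and 0 in the 293T knockout libraries. In H9 there were 5 and 6 with FLAG-PUS7, against 0 and 5 in the knockout. The first H9 FLAG-PUS7 library and the second H9 knockout library therefore tied. The difference was 43.8 points (exact permutation test, adjusted p = 0.0422). The call was lost without the first H9 knockout library, at 28.1 points (exact permutation test, adjusted p = 0.0620), and without any single FLAG-PUS7 library.

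Glu-TTC, with 17 rows, had the widest difference of the 5 families when all libraries and rows were used. In 293T, 13, 11 and 11 rows were found with FLAG-PUS7, against 7, 2 and 4 in the knockout. In H9, 12 and 14 rows were found with FLAG-PUS7, against 0 and 9 in the knockout. The groups did not overlap. The difference was 46.6 points (exact permutation test, adjusted p = 0.0221), 43.1 points in 293T and 50 points in H9. Leaving out the empty H9 knockout library lowered it to 33.3 points, which also passed (adjusted p = 0.0232, exact permutation test), and put the 23.5 points of H9 below those of 293T. The call was lost without the first or the second H9 FLAG-PUS7 library (adjusted p = 0.0566 and 0.112, exact permutation test). The share was 68.6% ± 6.79 in 293T FLAG-PUS7 libraries and 25.5% ± 14.8 in 293T knockout libraries (SD, n = 3 each), so the spread lay mostly in the knockout. Its place as the widest of the 5 changed with the setting. Without the empty H9 knockout library Glu-GAA was wider, at 37.5 points. Among rows matched to RefSeq tRNA genes Gln-TTG (58.3 points) and Gln-CTG (55.8 points) were wider than Glu-TTC (50 points).

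Glu-CTC, with 10 rows, was the family that the mock pull-down held almost as fully as the FLAG-PUS7 pull-down. In 293T each FLAG-PUS7 library held 8 rows, against 8, 6 and 7 in the knockout. In H9 there were 9 and 8 rows with FLAG-PUS7, against 0 and 8 in the knockout. The groups overlapped in both lines. At 27.5 points the difference missed the threshold (adjusted p = 0.152, exact permutation test), and leaving out the empty H9 knockout library lowered it to 7.5 points. Leaving out the first 293T knockout library gave 30 points and a call (adjusted p = 0.0388, exact permutation test). High mock shares were also seen outside this set. The 293T knockout and FLAG-PUS7 means were 81.25% and 93.75% for Asp-GTC and 85.2% and 100% for Gly-TCC, beside 70% and 80% for Glu-CTC.

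A stricter reading, in which a row counts only where no other row of the table holds its level, gave another picture of Glu-CTC. The 293T FLAG-PUS7 libraries then had 8, 5 and 7 rows on a level of their own, against 0, 0 and 0 in the 293T knockout libraries. In H9 the FLAG-PUS7 libraries had 8 in each, and the knockout libraries 0 and 6. Under this reading the family differed by 58.3 points, past the threshold (adjusted p = 0.0209, exact permutation test). A table with more distinct levels has more rows on a level of their own, and FLAG-PUS7 tables had 335 to 414 distinct levels against 6 to 102 in knockout tables. The part of this in the stricter result was not tested.

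Glu-GAA has 2 rows, both named by chromosome, and its anticodon is the one that normally reads phenylalanine codons. With FLAG-PUS7, 2, 1 and 0 of them were found in 293T and 0 and 1 in H9, while no knockout library held either. At 37.5 points the difference missed the threshold (adjusted p = 0.211, exact permutation test). Gln-CAG, a single row whose anticodon normally reads leucine codons, was detected in no library and not tested.

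**Figure D2:**
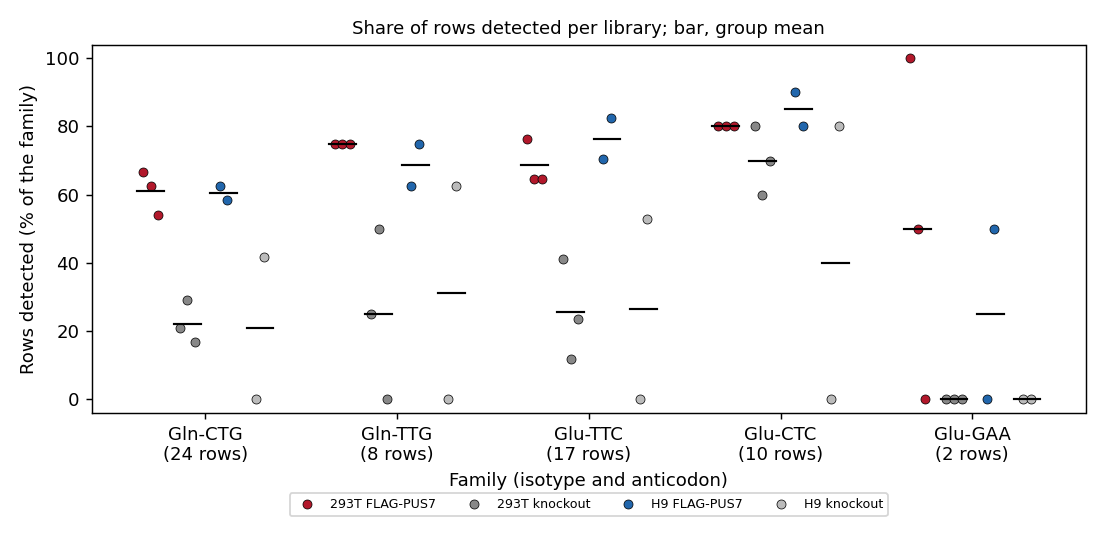
Percent of each family's rows detected in each library (points) with group means (bars), for the 5 tested families, FLAG-PUS7 left of knockout within each line. For Gln-CTG and Glu-TTC all FLAG-PUS7 points lie above the knockout points of their line, whereas Glu-CTC has knockout points at up to 80%, the level of the 293T FLAG-PUS7 libraries.

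Aspartate, histidine and glycine families were set beside these 5, as isotypes with a known pseudouridine of the PUS7 type near the D arm. Their differences lay within or above the range of the 5. Asp-GTC differed by 31.2 points, His-GTG by 49.2, and the glycine families by 35.2 for TCC, 49.4 for GCC, 52.1 for CCC and 100 for CAC. All 6 passed the exact permutation test, each with adjusted p = 0.0221. Without the empty H9 knockout library these differences were 9.38 points for Asp-GTC, 26.7 for His-GTG, 12.96 for Gly-TCC, 31.1 for Gly-GCC, 47.9 for Gly-CCC and 100 for Gly-CAC. Gly-CAC has 2 rows, and its anticodon normally reads valine codons. Differences between families were not tested.

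A second comparison asked whether stem cells and kidney cells differed in the gain with FLAG-PUS7. It was tested by exact two-sided permutation of the line labels within genotype (100 assignments, smallest possible p = 0.01). H9 minus 293T was 0.69 points for Gln-CTG (exact permutation p = 1.0), -12.5 points for Gln-TTG (p = 0.68) and 6.86 points for Glu-TTC (p = 0.82). It was 35 points for Glu-CTC (exact permutation p = 0.34) and -25 points for Glu-GAA (p = 0.7). Of the 5 families 0 differed, against 0 of all 57 (0%), and 0 of 57 had an unadjusted p under 0.05. These values rest on the empty H9 knockout library. Without it H9 minus 293T was -20.1 points for Gln-CTG, -43.8 for Gln-TTG, -19.6 for Glu-TTC, -5 for Glu-CTC and -25 for Glu-GAA, so that the sign turned for Gln-CTG, Glu-TTC and Glu-CTC. No family of the 57 had an unadjusted p under 0.05 without it (exact permutation p from 0.2 to 0.85 for the 5 families, smallest possible 0.025).

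Single rows fell into a few patterns. In all 5 FLAG-PUS7 libraries 35 of the 62 rows were detected, 17 for glutamine and 18 for glutamate, beside 67.4% of all rows. Of these 35, 2 were in no knockout library, against 30.1% of the 425 such rows in the series. All 4 knockout libraries that held any tRNA row held 9 of the 35, against 16.7% of the 425. The other 24 were in 1 knockout library (5 rows), 2 (10 rows) or 3 (9 rows). A further 14 rows were in some, but not all, of the FLAG-PUS7 libraries while absent from every knockout library, 13 rows (9 glutamine, 4 glutamate) were in no library, and 0 rows were in knockout libraries only. Over all 631 rows these counts were 84, 118 and 0.

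The 2 rows in all FLAG-PUS7 and no knockout libraries were Gln-CTG-6-1 and Glu-TTC-6-1. Gln-CTG-6-1 is the gene TRQ-CTG6-1 (chr6:27791356-27791427, GRCh38.p14), the 1 member of its isodecoder. Glu-TTC-6-1 matched TRE-TTC6-1 (chr1:148308922-148308993), which RefSeq lists as a pseudogene. Each differed by 100 points (unadjusted exact permutation p = 0.0167, the smallest possible, and adjusted p = 0.0668 over 513 rows). The difference and the unadjusted p follow from the pattern by which these rows were picked, and are no separate evidence for it. Over all tested rows 0 of 513 passed after adjustment (0%), and 128 of 513, or 25%, had an unadjusted p under 0.05 by the same test, against 2 of 49 glutamine and glutamate rows. Those 128 rows are the ones in all FLAG-PUS7 and no knockout libraries, so this count repeats the pattern. They share the lowest adjusted p of the exact permutation test, 0.0668. No row could therefore pass the threshold, and this test could not decide on single rows. The median row difference was 41.7 points over the 49 and 66.7 points over all 513, or 33.3 and 50 points without the empty H9 knockout library. Rows entered these medians when any library detected them. Among the 49, these 2 rows and 14 others were in FLAG-PUS7 libraries only, so their difference had to be positive. Over all 513 the same held for 128 and 84 rows. Under the stricter reading Gln-CTG-6-1 differed by 83.3 points and Glu-TTC-6-1 by 25.

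Close to this pattern were 5 rows in 4 of 5 FLAG-PUS7 libraries and no knockout library: Gln-CTG-9-1 (TRQ-CTG9-1, a pseudogene), Gln-CTG-chr19-4, Gln-TTG-4-1 (TRQ-TTG4-1, a tRNA gene), Glu-TTC-8-1 and Glu-TTC-chr1_KI270713v1_random-1. The first H9 FLAG-PUS7 library was the one without Gln-TTG-4-1, and a 293T FLAG-PUS7 library was the one without each of the others. None of the 5 passed the test over rows (adjusted p = 0.142 for each, exact permutation test), which no row could pass. These values follow from the pattern by which the rows were picked. The number of such rows among all 631 is not given here, so 5 cannot be called many or few.

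The 9 rows in all FLAG-PUS7 libraries and in each knockout library with any row were mostly glutamate rows. They were Gln-CTG-2-1 on the glutamine side, and Glu-CTC-1-1, Glu-CTC-1-3, Glu-CTC-1-4, Glu-CTC-1-5, Glu-CTC-1-6, Glu-CTC-2-1, Glu-TTC-1-2 and Glu-TTC-5-1 on the glutamate side. For 8 of them the RefSeq gene was known. TRE-CTC1-3 to TRE-CTC1-5 lie in a cluster on chromosome 1 with TRE-CTC1-2 (chr1:161447228-161447299 to chr1:161469399-161469470). TRE-CTC1-1 (chr1:146035692-146035763) and TRE-CTC2-1 (chr1:248874248-248874319) lie elsewhere on that chromosome. TRE-CTC1-6 and TRQ-CTG2-1 are on chromosome 6 and TRE-TTC1-2 is on chromosome 13. TRE-CTC1-2 itself was in all FLAG-PUS7 libraries and in 2 knockout libraries.

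Rows in FLAG-PUS7 libraries of 1 line only were 6, each in a single library, beside 33 of all 631 rows. Gln-CTG-8-1 and Gln-CTG-8-2 were in the first 293T library, Glu-GAA-chr1-125 also in the first, and Gln-CTG-chr1-23 in the third. Glu-CTC-3-1 was in the first H9 library and Glu-TTC-chr1-20 in the second. None of the 62 rows was in every FLAG-PUS7 library of one line and in no FLAG-PUS7 library of the other.

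Copies of one isodecoder were then merged, because reads from identical mature tRNAs cannot be assigned to a copy and the labels do not give the authors' way of sharing them out. The detection of any single copy is uncertain for that reason. The 62 rows reduced to 45 isodecoders, 24 for glutamine and 21 for glutamate, of which 8 had several copies. Of the 45, 19 were in all 5 FLAG-PUS7 libraries, 2 of these in no knockout library and 6 in each knockout library with any row. Over all 465 isodecoders these counts were 271, 97 and 47.

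The isodecoders in every non-empty library were Gln-CTG-1, Gln-CTG-2, Glu-CTC-1, Glu-CTC-2, Glu-TTC-1 and Glu-TTC-5. For Gln-CTG-1, with 5 copies, every FLAG-PUS7 library detected all 5, while the 293T knockout libraries detected 2, 4 and 3 copies and the H9 knockout libraries 0 and 5. Which copies the 293T knockout libraries held changed from library to library, and no copy was in all 3. For Glu-CTC-1, with 7 copies, every FLAG-PUS7 library detected all 7, and the knockout libraries 7, 5 and 6 in 293T and 0 and 7 in H9. For Gln-TTG-3, with 3 copies, every FLAG-PUS7 library detected all 3, and the knockout libraries 1, 2 and 0 in 293T and 0 and 3 in H9. Both copies of Gln-CTG-3 and of Glu-TTC-2 were detected in all FLAG-PUS7 libraries. The 293T knockout libraries that held Gln-CTG-3 did not hold Glu-TTC-2, with 0, 2 and 0 copies of Gln-CTG-3 and 2, 0 and 2 copies of Glu-TTC-2.

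Detection followed the annotation of the rows. By symbol, 42 of 62 rows matched RefSeq, 33 of them tRNA genes and 9 pseudogenes, and 20 did not match. Of the 33 tRNA genes, the FLAG-PUS7 libraries detected 32, 33 and 32 in 293T, with 32 and 32 in H9. The knockout libraries detected 20, 18 and 14 in 293T, with 0 and 29 in H9. All 14 glutamate genes were in each of the 5 FLAG-PUS7 libraries. The series as a whole was as near the ceiling with FLAG-PUS7, where 97.1% to 97.8% of all 408 RefSeq tRNA genes were detected, against 30.4% to 54.2% in 293T knockout libraries and 0% and 53.4% in H9 knockout libraries. The knockout libraries detected 13, 7 and 10 of the 14 glutamate genes in 293T and 0 and 14 in H9. Of the 19 glutamine genes the FLAG-PUS7 libraries detected 18, 19 and 18 in 293T, with 18 and 18 in H9. The knockout libraries detected 7, 11 and 4 in 293T, with 0 and 15 in H9. With RefSeq genes alone, Gln-CTG and Gln-TTG passed the family test and Glu-TTC did not (50 points, exact permutation test, adjusted p = 0.0645).

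Pseudogene rows were seldom detected, as in the series as a whole. Of the 9, the FLAG-PUS7 libraries held 3, 2 and 1 in 293T, with 2 and 3 in H9, and each knockout library held 0. Of all 43 pseudogene rows of the series, the FLAG-PUS7 libraries held 11, 9 and 9 in 293T, with 9 and 9 in H9, and the knockout libraries held 0 except for 1 in the second of H9. Of the 20 rows without a match, the FLAG-PUS7 libraries held 10, 6 and 5 in 293T, with 7 and 8 in H9. The knockout libraries held 2, 1 and 1 in 293T, with 0 and 3 in H9. The 10 rows named by chromosome were among these, with 6, 5 and 3 in 293T and 4 and 6 in H9 for FLAG-PUS7, against 1, 0 and 0 in 293T and 0 and 2 in H9 for the knockout.

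The first H9 knockout table sorts the rows by the width of their text entries, from class 1, the narrowest, upward. The knockout libraries with any row detected a larger share of the wider classes, so the class is tied to detection and serves here only to set rows beside like rows. Of the 33 glutamine rows, 17 were in class 1, 13 in class 2 and 3 in class 3. Of the 29 glutamate rows, 11 were in class 1, 2 in class 2, 13 in class 3, 2 in class 4 and 1 in class 5. Most glutamine rows detected in any library were of class 2, and most such glutamate rows of class 3.

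Beside other rows of the same class, glutamine rows of class 2 and glutamate rows of class 3 had higher shares detected in the mock pull-down. Other classes were mixed in the mock pull-down. In class 1 there were 28 glutamine and glutamate rows and 220 others. The FLAG-PUS7 libraries detected 39.3%, 25% and 14.3% of the 28 in 293T, with 25% and 32.1% in H9. They detected 39.5%, 37.7% and 33.2% of the 220 in 293T, with 41.4% and 37.3% in H9, the higher share in each library. The knockout libraries detected at most 3.57% of the 28 and 0.909% of the 220. Of the 13 glutamine rows in class 2, every FLAG-PUS7 library detected all 13, and the knockout libraries 46.2%, 61.5% and 30.8% in 293T and 0% and 92.3% in H9. Of the 115 rows of class 2 that are neither glutamine nor glutamate, the FLAG-PUS7 libraries detected 97.4% to 98.3%, and the knockout libraries 14.8%, 9.57% and 6.09% in 293T and 0% and 26.1% in H9. Each knockout library with any row thus had the higher share for glutamine. Of the 13 glutamate rows in class 3, every FLAG-PUS7 library detected all, and the knockout libraries 84.6%, 46.2% and 69.2% in 293T and 0% and 100% in H9. For the 150 other rows of class 3 the FLAG-PUS7 libraries detected 100% and the knockout libraries 73.3%, 34% and 32.7% in 293T and 0% and 63.3% in H9. The 3 glutamine rows of class 3, Gln-CTG-3-1, Gln-CTG-3-2 and Gln-TTG-2-1, were in the second 293T and the second H9 knockout library and in neither other 293T knockout library. The 2 glutamate rows of class 2 were at 50%, 0% and 0% in 293T knockout libraries and 0% and 50% in H9 knockout libraries. The 2 of class 4 were at 100%, 50% and 50% in 293T and 0% and 100% in H9. All 86 rows of class 4, these 2 included, were at 96.5%, 66.3% and 70.9% in 293T and 0% and 88.4% in H9. These shares have no test, since copies of one tRNA share sequence and reads.

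**Figure D3:**
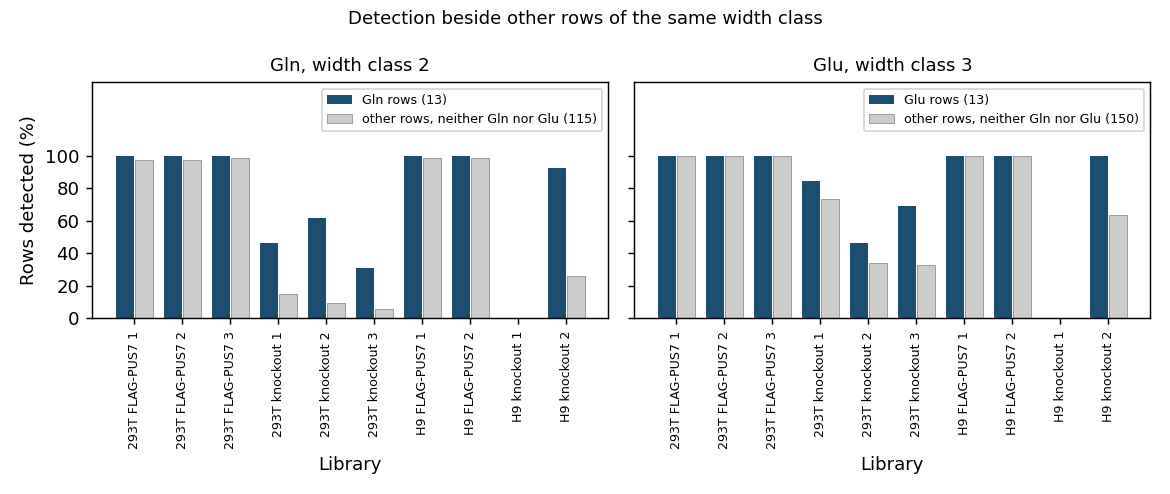
Percent of rows detected in each library for the 13 glutamine rows of width class 2 (left) and the 13 glutamate rows of width class 3 (right), each beside the other rows of that class that are neither glutamine nor glutamate (115 and 150 rows). All FLAG-PUS7 bars stand at or near 100%, and in the 4 knockout libraries with any tRNA row the dark bar is above the pale one.

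Glu-TTC-5-1 was the 1 row of width class 5. All 5 FLAG-PUS7 libraries held it, as did the 4 knockout libraries with any row. Its level in the first H9 knockout table cannot be read, since no other row of its class shows what an empty entry looks like there. Taken as detected in that library, it left the same 3 families called.

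Peak lists give a readout that is separate from the tRNA tables. They cover the 5 FLAG-PUS7 libraries, hold 120, 85 and 39 peaks in 293T and 1605 and 199 in H9, and are made of bins of 200 bases with a signal that the authors did not scale for depth. No peak list of a knockout library was used here, so that peaks show no comparison with the mock pull-down. Their names say that tRNA was removed, yet bins at tRNA genes are among them. A bin was assigned to a gene when it overlapped the gene by at least 1 base, and bins do not show whether the reads came from the tRNA itself or from its flank.

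Of 59 RefSeq glutamine and glutamate tRNA genes and pseudogenes, 13 had a peak, 6 for glutamine and 7 for glutamate. There was 1 in all 5 lists, 6 were in at least 2, and 7 were in 1 list only, always the long first H9 list, with signals from 4 to 22. By list the numbers of genes were 3, 3 and 1 in 293T and 13 and 6 in H9. Peaks at any tRNA gene numbered 51, 42 and 19 in 293T and 114 and 56 in H9, of which these were 5.88%, 7.14% and 5.26% in 293T and 11.4% and 10.7% in H9. Glutamine and glutamate rows are 9.83% of the rows in the tRNA tables, which is a share of rows and not of RefSeq genes. The share of all RefSeq tRNA genes with a peak is not given here, so 13 of 59 cannot be called high or low.

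TRE-CTC9-1, a glutamate pseudogene without a row in the tRNA tables (chr2:150362763-150362835), was the gene with a peak in all 5 lists. Its bin, chr2:150362801-150363000 on the plus strand, covered 35 bases or 47.9% of the gene. The authors' signal was 69, 89 and 37 in 293T, with 244 and 180 in H9, and it ranked 16, 18 and 22 in the 293T lists and 6 in both H9 lists. Signals at all other glutamine and glutamate genes were at most 44.

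TRQ-CTG6-1, the gene of the glutamine row that no knockout library held, was the 1 glutamine gene with a peak in 293T. Its bin, chr6:27791201-27791400 on the minus strand, covered 45 bases or 62.5% of the gene. The signal was 17 and 44 in the first and second 293T lists, 19 and 18 in H9, and the third 293T list had no peak there. The row of Gln-CTG-6-1 was detected in all of these libraries, the third 293T library included.

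TRE-TTC2-1 (chr13:44917927-44917998) was in 4 lists and lay wholly within its bin, which also overlapped the gene LOC107984619. The signal was 15 and 17 in the first and second 293T lists and 31 and 7 in H9. TRE-TTC3-1 was in both H9 lists at 13 and 8, in a bin that also overlapped LOC124903860 and LINC03126. TRQ-CTG3-1 and TRQ-CTG3-2, copies of one isodecoder on chromosome 1, were in both H9 lists with the same signals, 9 and 6, at both loci. Equal signals at identical genes are uncertain as separate peaks, since the reads of one copy cannot be told from those of the other.

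The genes in the first H9 list alone were TRE-TTC4-1 at a signal of 22, TRE-CTC1-5, TRE-CTC2-1 and TRQ-CTG5-1 at 7, TRQ-CTG4-1 at 5, and TRE-TTC4-2 and TRQ-TTG2-1 at 4. The peak of TRE-TTC4-1 also overlapped LINC01783, and that of TRQ-TTG2-1 also overlapped SCAND3 and ZBED9-AS1. A second value per peak, which reads as the natural log of a count whose source is not stated, was at its floor of 1e-05 for most of these peaks. It was above the floor for TRQ-CTG6-1, at 0.693 in the second 293T list and 1.10 in the second H9 list, and for TRE-CTC9-1, at 1.10 and 1.79 in the H9 lists. Detection and peaks did not run in parallel in the series as a whole. FLAG-PUS7 libraries detected 396 to 399 of all 408 RefSeq tRNA genes, beside 19 to 114 peaks at tRNA genes per list. Glu-CTC showed this as well. Every FLAG-PUS7 library held all 8 of its rows matched to a RefSeq tRNA gene, and 2 of these genes had a peak, each at 7 in 1 list. The pseudogene TRE-CTC9-1 of the same anticodon, without a row, had a peak in all 5 lists. The bin of TRE-CTC1-5 covered 2 bases or 2.78% of the gene, and that of TRE-CTC2-1 also overlapped the gene PGBD2. Gln-TTG was alike: the FLAG-PUS7 libraries held 6, 6 and 6 of its 8 rows in 293T and 5 and 6 in H9. TRQ-TTG2-1 was its only gene with a peak, at 4 in 1 list.

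**Figure D4:**
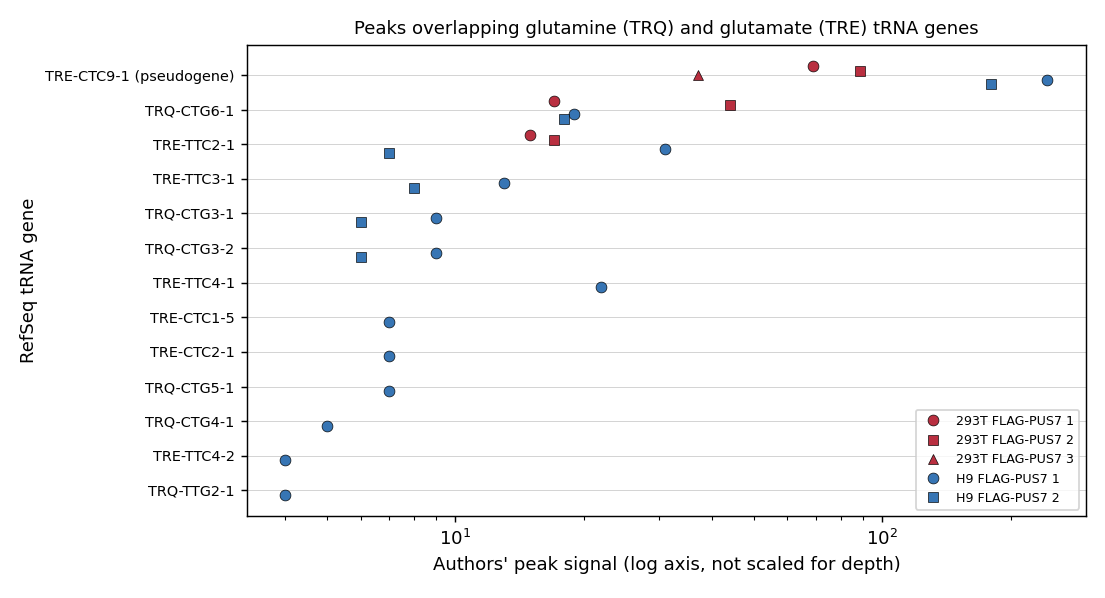
Authors' peak signal (log axis, not scaled for depth) at the 13 glutamine (TRQ) and glutamate (TRE) tRNA genes with a peak, one point per FLAG-PUS7 list, 293T in red and H9 in blue, with the marker giving the replicate. TRE-CTC9-1 has a point from each of the 5 lists, at 37 to 244, and the other genes have signals of at most 44.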

How the data were processed

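iCLIP libraries were made from 10 samples, 5 FLAG-PUS7 and 5 knockout. Per the labels' protocols, cells were irradiated at 254 nm with a UV dose of 200 mJ/cm2, complexes were taken up on anti-FLAG beads (2 h, 4 °C) and a MiSeq ran 50 cycles. Per the submitters' processing notes, Bowtie, SAMtools, bedtools and hg38 were used, without version or role. No peak caller is named there. The values the authors deposited in the tRNA tables are level numbers of text, neither counts nor a score of amount, so depth is unknown. Deposited peak lists hold a signal per bin, a p-value whose test is not stated, and the natural log of a second value.

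Levels above the lowest ascending run of width classes were read as detected. Shares of rows per family were compared with Python 3.11.15, pandas 2.3.3 and NumPy 2.4.6 by exact permutation with a threshold of 0.05 on adjusted p, checked on simulated data. Of all 631 rows, 451 matched a RefSeq symbol (GRCh38.p14). Named rows are those of the patterns given in the report, and named genes those with a peak in at least 2 lists; genes in 1 list were added after their values were seen. The stricter reading, weights, row filters, copies merged and single libraries left out were tried as alternatives. Rows, lists and tests were chosen with earlier results of these data known. In 293T the deviations of same-numbered libraries correlated at -0.13, -0.05 and 0.01 over 57 families, so the numbers were not taken to pair samples. Total rows detected did fall in the same order by number there, at 478, 470 and 458 with FLAG-PUS7 and 232, 139 and 133 in the knockout. In H9 they were 479 and 472 with FLAG-PUS7 and 0 and 232 in the knockout. Whether same-numbered libraries shared a batch was not tested.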

Additional observations from a re-analysis of the deposited data

How the results depend on the processing

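Of 84 family values under alternatives, 68 kept their direction and their side of the threshold, 14 lost the call, 2 gained it and 0 changed direction. The number of glutamine and glutamate families called, 3, ranged from 0 to 4 when single libraries were left out. It was 0 without either H9 FLAG-PUS7 library (23 families of the series were then called, against 45) and 4 without the first 293T knockout library. It was also 0 with the replicate block, in which pairs by number give a smallest possible p of 0.0625 (exact permutation, adjusted p = 0.081 for each of the 3, and 0 of 57 families called), so no call can pass there. Leaving out single libraries, the difference ranged from 9.17 to 16.7 for glutamine rows (12.9 with all libraries) and from 7.17 to 15.7 for glutamate rows (11.4). It was 8.08 glutamine isodecoders with copies merged, an alternative chosen after seeing the data, and 5.5 glutamate rows among RefSeq genes, since both leave fewer units to count. The 6 genes with a peak in at least 2 lists became 2 when the bin had to hold the whole gene. No family differed between lines, and no row passed, under the alternatives in which these tests were run. For rows this is no separate support, since with all libraries even the smallest possible p did not pass. Unknown depth limits all of these values: a row not detected may be a row not sampled.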

Other observations

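Taken as a share of all rows that a library detected, glutamine and glutamate rows made up 9.41%, 8.72% and 8.30% in the 293T FLAG-PUS7 libraries and 9.48%, 13.7% and 11.3% in the 293T knockout libraries. In H9 they made up 8.56% and 9.11% in the FLAG-PUS7 libraries and 13.8% in the second knockout library, with no value for the first. These rows are 9.83% of the rows in the tables. All FLAG-PUS7 libraries lay under that share and 3 of the 4 knockout libraries with any row lay above it.

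The RefSeq genes of both isotypes cluster on chromosomes 1 and 6, with 13 of the 33 rows matched to a tRNA gene on each. Of the 13 on chromosome 6, the FLAG-PUS7 libraries detected 13 each in 293T and 12 and 13 in H9, and the knockout libraries 6, 8 and 5 in 293T and 0 and 10 in H9. Of the 13 on chromosome 1, the FLAG-PUS7 libraries detected 12, 13 and 12 in 293T, with 13 and 12 in H9. The knockout libraries detected 8, 7 and 5 in 293T, with 0 and 12 in H9.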
